A study of Mus musculus with 14 samples.

Results

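The mitochondrial genome of the mouse encodes 37 genes, and all 37 were found in the deposited RNA-seq tables by the prefix mt- of their names, among 49585 genes in all. They comprised 13 mRNAs, 2 rRNAs and 22 tRNAs. The RNA came from hind limb skeletal muscle of wild-type mice (WT) and of mice labelled as knockouts of Myf6 (KO), each without injury or with injury, which gives 4 groups of 3 libraries. Myf6, also called MRF4, is a muscle regulatory transcription factor that is most abundant in differentiated fibres. The labels give neither the knockout allele nor the strain, age or sex of the mice, nor the kind of injury or the time after it. The descriptions give WT and KO libraries different numbers, with the uninjured and injured library of 1 number told apart by the letters L and R, whose meaning is not stated. Genotype cannot be told apart from litter or batch. Nothing in the labels says outright that replicates were separate animals, and p-values then measure the spread between these libraries only.

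Mitochondrial DNA is a small circle that is transcribed from both strands into long precursor RNAs. The tRNAs lie between most of the other genes, and their excision by RNase P and ELAC2 releases the mRNAs and rRNAs. The heavy-strand precursor yields both rRNAs, most mRNAs and most tRNAs. The other precursor yields mt-Nd6 and 8 tRNAs, those for glutamine, alanine, asparagine, cysteine, tyrosine, serine (mt-Ts1), glutamate and proline, called light-strand tRNAs here. The 13 proteins are all subunits of the respiratory chain and the ATP synthase: 7 of complex I, 1 of complex III, 3 of complex IV and 2 of complex V. Skeletal muscle fibres are rich in mitochondria, slow and IIa fibres more so than IIb fibres.

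The values are RPM, reads assigned to a gene per 1000000 assigned reads of the library. Whole reads could be recovered from them for 100% of the values tested, within 0.1 read, and the totals ranged from 1880087 reads (uninjured WT replicate 2) to 49392472. A floor of 3 reads corresponded to 0.0607 to 1.60 RPM. Intervals and floors cover counting error only. Myf6 was at 25.0 to 111 RPM in uninjured WT against 1.86 to 3.46 RPM in uninjured KO, and at 47.9 to 121 and 2.88 to 3.32 RPM in injured muscle. Muscle fibre markers (Acta1, Ckm, Tnnt3, Mylpf and Ttn) summed to at least 70567 RPM in every library. Injured KO replicate 2 stood apart from the other 2 libraries of its group in most of what follows. The injured results that turn on it are therefore also given without it, and those fits and tests then have 2 KO libraries. It was left out after these same values were seen. Calls and p-values without it thus describe the remaining libraries and are no independent test of a KO difference.

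Mitochondrial genes took a large and variable share of the reads. In uninjured muscle they held 18.1%, 22.3% and 13.8% of the reads in WT and 6.76%, 15.3% and 3.63% in KO. In injured muscle they held 12.5%, 8.35% and 14.8% in WT and 4.95%, 23.2% and 4.30% in KO. KO replicate 2 had the highest share of its group in both states, and the ranges of WT and KO overlapped in both. The group means were 18.1% ± 4.23 and 8.58% ± 6.06 (SD, n = 3 each) in uninjured WT and KO (exact two-sided permutation p = 0.2) and 11.9% ± 3.25 and 10.8% ± 10.7 (SD, n = 3 each) in injured WT and KO (exact permutation p = 1.0). With 3 libraries against 3 this test cannot go below 0.1. Without injured KO replicate 2 the injured difference, KO minus WT, was -7.25 percentage points instead of -1.07. Both injured KO libraries that remained then lay below all injured WT libraries. In RNA from whole tissue, fewer mitochondria-rich cells and less mitochondrial RNA per cell cannot be told apart.

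**Figure D1:**
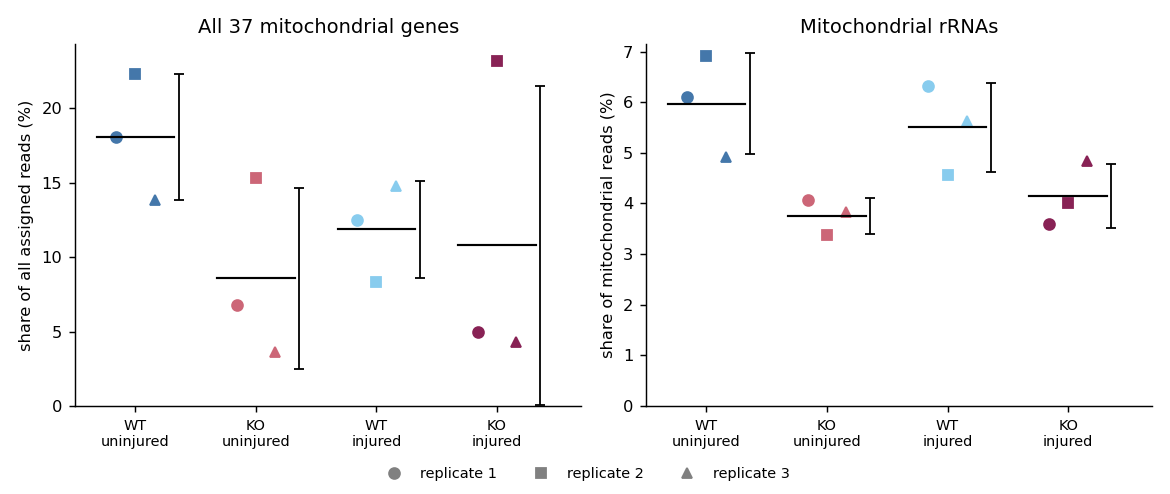
Share of all assigned reads on the 37 mitochondrial genes (left, %) and share of the mitochondrial reads on the 2 rRNAs (right, %) in each library; points are libraries, horizontal lines group means and bars 1 SD (n = 3). The KO libraries of replicate 2 stand at 15.3% and 23.2% on the left, above the other KO libraries, while on the right all uninjured KO libraries lie below all uninjured WT libraries.

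The classes divided these reads very unevenly. The mRNAs held 92.9% to 96.6% of the mitochondrial reads, the rRNAs 3.37% to 6.90% and the tRNAs 0.0499% to 0.216%. In background terms, mitochondrial rRNAs and tRNAs are abundant molecules in cells. A TruSeq RNA v2 library, the kind named in the labels, is normally made from polyadenylated RNA broken into fragments longer than a tRNA. The low rRNA and tRNA levels here are thus levels of what this library type captures, and the labels do not say whether RNA was selected. Reads over a tRNA can also come from uncut precursors or from a neighbouring transcript, which these tables do not separate.

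Only 4 tRNAs carried nearly all of the tRNA reads. Over the 12 libraries the 22 tRNA genes had 46153 reads, of which mt-Tp (proline), mt-Tc (cysteine), mt-Te (glutamate) and mt-Tn (asparagine) had 46050, or 99.8%. All 4 belong to the 8 light-strand tRNAs. In total the genes of the light-strand tRNAs had 46111 reads and those of the 14 heavy-strand tRNAs 42. Whether strand was used in counting is not stated, so reads from the opposite strand of these genes cannot be told apart. A further 8 tRNAs had 1 to 32 reads each in the 12 libraries together, mt-Ts1 (serine) the most. Its reads sat in 3 libraries, with 5 in uninjured WT replicate 2, 16 in injured WT replicate 3 and 11 in injured KO replicate 2. The remaining 10 tRNAs, 9 of the heavy strand and mt-Ta (alanine) of the light strand, had 0 reads in every library. A count of 0 allows up to 0.0607 RPM in the deepest library and 1.60 RPM in the shallowest. In the cluster of 5 tRNA genes between mt-Nd2 and mt-Co1, the neighbours mt-Tn and mt-Tc had 1357 and 13221 reads, whereas mt-Tw and mt-Ta before them had 0 and mt-Ty after them had 1.

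In uninjured muscle 3 of these tRNA genes had lower read levels in KO: mt-Tc, mt-Tn and mt-Tp. They were tested with limma on log2(RPM + 1) over all genes that reached 1 RPM in at least 3 of the 6 libraries, with Benjamini-Hochberg adjustment and a threshold of 0.05. Of the 37 members 17 passed that filter (11 mRNAs, both rRNAs and 4 tRNAs), and 3 of the 17 were called, all lower in KO. Of all genes tested 0.281% were called, and 0.152% were called lower in KO. The filter favours genes that are high in at least 1 group: mt-Tn passed through its WT libraries alone. At an unadjusted p under 0.05 the number of members was 13 of 17, where 14.2% of all genes tested were.

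mt-Tc, the mitochondrial tRNA for cysteine, was at 94.1, 147 and 76.3 RPM in uninjured WT against 1.45, 4.49 and 1.12 RPM in uninjured KO. Every KO library lay far below every WT library. The log2 change on the log2(RPM + 1) scale was -5.07 (SE 0.43, limma adjusted p = 0.00269). Pooled over the 3 libraries of each group, the WT level was 49.8 times the KO level, with a 95% counting interval of 42.2 to 59.2.

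mt-Tn, the tRNA for asparagine, was at 11.3, 13.3 and 7.91 RPM in uninjured WT against 0.114, 0.157 and 0.117 RPM in uninjured KO. The KO values rested on 3, 2 and 5 reads against 352, 25 and 240 reads in WT, so the KO level is close to the floor. The log2 change was -3.36 (SE 0.36, limma adjusted p = 0.00783), which the added 1 RPM shrinks. From pooled reads the WT level was 79.7 times the KO level, with a counting interval of 43.0 to 167.

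mt-Tp, the tRNA for proline, was at 229.6, 254 and 183 RPM in uninjured WT against 46.0, 50.4 and 24.8 RPM in uninjured KO. Again no KO library reached a WT library. The log2 change was -2.48 (SE 0.32, limma adjusted p = 0.0215), and the pooled WT level was 5.85 times the KO level (counting interval 5.62 to 6.09).

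mt-Te, the tRNA for glutamate, was at 27.8, 5.32 and 31.3 RPM in uninjured WT against 6.35, 21.5 and 4.51 RPM in uninjured KO. The groups overlapped, and mt-Te was not called (log2 change -0.90, SE 0.71, limma adjusted p = 0.612). Its gene is on the same strand as the other 3, and whether its difference departs from theirs was not tested.

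In the authors' deposited table for uninjured muscle, mt-Tc, mt-Tn and mt-Tp were likewise the only members with a q-value under 0.05 (1.07e-15, 1.07e-15 and 0.000196), all lower in KO. That table has 0.7% of all its genes with a q-value called lower in KO. Its log2 fold changes, WT over KO, were 5.18, 6.32 and 2.18. The call of mt-Tc held in 16 of the 17 alternatives run, with adjusted p up to 0.0993, reached with no filter on low values. That of mt-Tn held in 10 of the 13 that tested it, and was lost without uninjured KO replicate 1 (adjusted p = 0.171, the highest of the 13); leaving out a WT library took mt-Tn below the filter. That of mt-Tp held in 9 of 17, with adjusted p up to 0.561. It was lost without uninjured WT replicate 1, 2 or 3 (adjusted p = 0.280, 0.181 and 0.0717) and without uninjured KO replicate 1 (adjusted p = 0.235), while the log2 change stayed between -2.67 and -2.17 when any 1 library was left out.

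**Figure D2:**
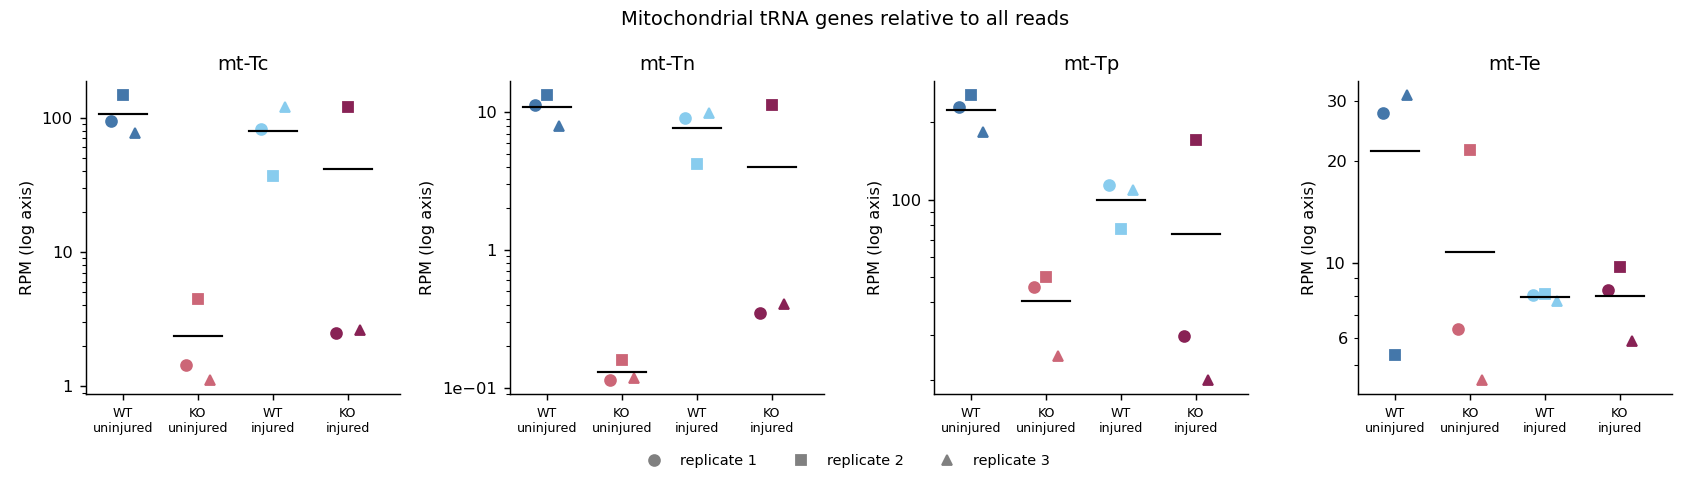
RPM of the 4 tRNA genes with most reads in each library, on log axes that do not start at 0; points are libraries and horizontal lines group means (n = 3). For mt-Tc the uninjured KO libraries sit at 1.12 to 4.49 RPM against 76.3 to 147 in WT, and injured KO replicate 2 (119 RPM) lies among the injured WT libraries while the other injured KO libraries are near 2.5 RPM (2.49 and 2.61).

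Set against the mitochondrial mRNA of the same library, which removes the difference in total mitochondrial reads, the 3 tRNAs were still lower in uninjured KO. mt-Tc had 556, 709 and 582 reads per 1000000 mitochondrial mRNA reads in uninjured WT and 22.3, 30.3 and 32.2 in uninjured KO. mt-Tn had 66.9, 64.3 and 60.3 in WT and 1.76, 1.06 and 3.35 in KO. mt-Tp had 1356, 1229 and 1396 in WT and 710.0, 340.1 and 710.4 in KO. On this scale the ratios of the group means, WT over KO, were 21.8, 31.0 and 2.26, and no KO library overlapped a WT library for any of the 3 (exact permutation p = 0.1, the smallest possible, n = 3 each). All tRNA reads together came to 0.214, 0.204 and 0.228 per 100 mitochondrial mRNA reads in uninjured WT and to 0.0832, 0.0517 and 0.0877 in uninjured KO (exact permutation p = 0.1). When the limma fit itself was scaled to mitochondrial mRNA reads, mt-Tc kept its call (log2 change -4.03, adjusted p = 0.0151) and mt-Tn and mt-Tp lost theirs (-2.60, adjusted p = 0.0663, and -1.24, adjusted p = 0.561). That scaling moved the median of all genes by 1.11 on the log2 scale. Subtracting the median of all genes largely takes the scaling back out. It gave -4.96, -3.53 and -2.17 here, beside -4.89, -3.18 and -2.30 in the main fit. These median-relative values therefore do not measure the 3 tRNAs against mitochondrial mRNA.

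In injured muscle no member was called in KO against WT by limma (17 tested, 0 at an unadjusted p under 0.05), where 0.269% of all genes were. edgeR and DESeq2 on the recovered reads also called 0 members, with 0 at an unadjusted p under 0.05 each. mt-Tc was at 81.8, 36.6 and 119 RPM in injured WT against 2.49, 119 and 2.61 RPM in injured KO. mt-Tn was at 9.15, 4.23 and 9.87 RPM in injured WT against 0.348, 11.3 and 0.405 RPM in injured KO. mt-Tp was at 114, 77.2 and 109.6 RPM in injured WT against 29.8, 171 and 20.1 RPM in injured KO. In all 3 genes KO replicates 1 and 3 lay below every WT library and KO replicate 2 was at or above the highest WT library. The log2 changes were -2.65 (SE 1.34, limma adjusted p = 0.556) for mt-Tc, -1.54 (SE 0.85, adjusted p = 0.578) for mt-Tn and -1.05 (SE 0.73, adjusted p = 0.661) for mt-Tp. Without injured KO replicate 2, 11 of 17 members were called, all lower in KO, where 19% of all genes tested were called and 9.54% were called lower. They were mt-Tc (-4.34, adjusted p = 0.00355), mt-Tn (-2.60, adjusted p = 0.00669), mt-Tp (-1.97, adjusted p = 0.00536), both rRNAs and the mRNAs mt-Nd1, mt-Nd2, mt-Nd4, mt-Nd5, mt-Co1 and mt-Cytb. Leaving out any other injured library gave 0 calls. Each of these fits without a library leaves 1 arm with 2 libraries. Without KO replicate 2, mt-Tn passed the filter through its WT libraries alone.

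Counted per 1000000 mitochondrial mRNA reads, the injured groups came apart by narrow gaps for 2 of the 3 tRNAs with every library in. mt-Tn had 78.3, 53.2 and 71.0 reads in injured WT and 7.30, 50.8 and 9.90 in injured KO. mt-Tp had 973, 970.1 and 788 in injured WT and 625, 771 and 491 in injured KO (exact permutation p = 0.1 for each, n = 3). For both genes KO replicate 2 was barely below the lowest WT library. These gaps rest on 204 against 113 reads of mt-Tn and 3092 against 2863 reads of mt-Tp. Whether they exceed counting error was not tested. mt-Tc had 699, 460.1 and 857 in injured WT and 52.3, 537 and 63.9 in injured KO, so that KO replicate 2 fell inside the WT range (exact permutation p = 0.2). The tRNA class as a whole had 0.182, 0.159 and 0.178 reads per 100 mitochondrial mRNA reads in injured WT and 0.0861, 0.141 and 0.0709 in injured KO, with no overlap (exact permutation p = 0.1). mt-Te had higher mean values in injured KO on this scale, 121 ± 68.4 against 75.2 ± 23.8 (SD, n = 3), with overlapping groups (exact permutation p = 0.4). When injured KO replicate 2 was left out, mt-Tc, mt-Tn, mt-Tp and the whole class were lower and mt-Te higher in KO with no overlap, each at an exact permutation p of 0.1, again the smallest possible.

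**Figure D3:**
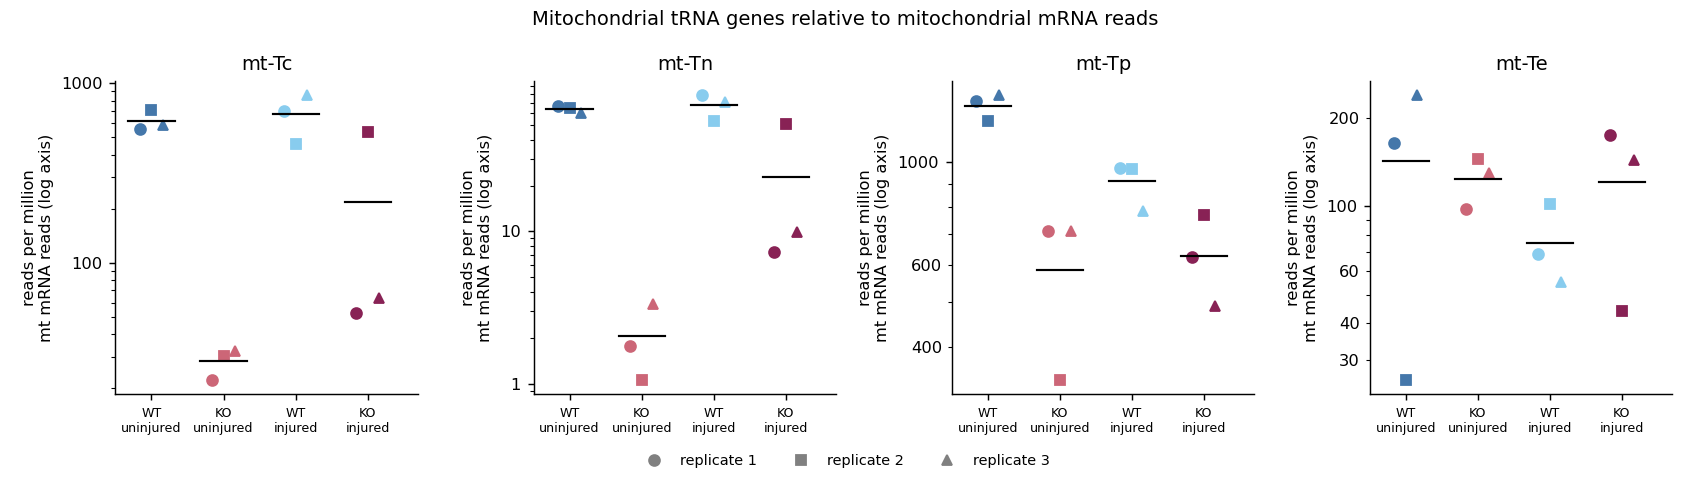
Reads of the same 4 tRNA genes per 1000000 mitochondrial mRNA reads in each library, on log axes that do not start at 0; points are libraries and horizontal lines group means (n = 3). All uninjured KO libraries lie below all uninjured WT libraries for mt-Tc, mt-Tn and mt-Tp but not for mt-Te. All injured KO libraries lie below all injured WT libraries for mt-Tn and mt-Tp, with injured KO replicate 2 barely below.

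The 2 rRNAs of the mitochondrial ribosome, mt-Rnr1 of the small and mt-Rnr2 of the large subunit, were lower in every uninjured KO library than in any uninjured WT library but did not pass the limma threshold. mt-Rnr1 was at 4419, 6835 and 2800.35 RPM in uninjured WT against 1059, 1899.8 and 523 RPM in uninjured KO (log2 change -2.11, SE 0.49, limma adjusted p = 0.115). mt-Rnr2 was at 6594, 8542 and 4005 RPM in WT against 1694, 3272 and 864 RPM in KO (log2 change -1.85, SE 0.49, limma adjusted p = 0.153). DESeq2 called mt-Rnr1 (adjusted p = 0.0434), as it called 4.32% of all genes, while the authors' q-value for mt-Rnr1 was 0.150. A limma fit with a replicate block called both (adjusted p = 0.00104 and 0.00379), as it called 6.04% of all genes. That block matches WT and KO libraries by replicate number, a pairing that the labels do not give. In injured muscle mt-Rnr1 was at 3515, 1513 and 3897 RPM in WT against 674, 3756 and 768 RPM in KO, and mt-Rnr2 at 4393, 2299 and 4401 RPM in WT against 1107, 5548 and 1312 RPM in KO. Both overlapped there through KO replicate 2 alone. Without that library both rRNAs were called (log2 changes -1.93 and -1.55, limma adjusted p = 0.0199 and 0.0189).

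Within the mitochondrial reads the rRNAs held 6.09%, 6.90% and 4.92% in uninjured WT and 4.07%, 3.37% and 3.82% in uninjured KO. All 3 KO values were below all WT values (5.97% ± 0.996 against 3.76% ± 0.354, SD, n = 3, exact permutation p = 0.1). In injured muscle the shares were 6.32%, 4.56% and 5.62% in WT and 3.60%, 4.02% and 4.84% in KO, where KO replicate 3 reached into the WT range (exact permutation p = 0.2, and 0.3 without KO replicate 2). The amount of mt-Rnr1 per 100 reads of mt-Rnr2 was 67.0, 80.0 and 69.9 in uninjured WT and 62.5, 58.1 and 60.5 in uninjured KO, again without overlap (exact permutation p = 0.1). In injured muscle it was 80.0, 65.8 and 88.6 in WT and 60.9, 67.7 and 58.5 in KO, which overlapped (exact permutation p = 0.2). Without KO replicate 2 this ratio was lower in KO with no overlap (exact permutation p = 0.2).

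Of the 11 mRNAs tested in uninjured muscle, 0 were called by limma and 8 had an unadjusted p under 0.05, beside 14.2% of all genes. All 11 estimates were below 0, from -0.26 for mt-Nd3 to -2.11 for mt-Co2, with a median of -1.22, beside a median of -0.18 over all genes tested. These signs hold on the RPM scale: scaled to mitochondrial mRNA reads, 6 of the 11 were above 0, among them mt-Nd6 (0.43), mt-Nd1 (0.14) and mt-Cytb (0.04). Over the 17 members tested the median was -1.51. In 7 of the 17 every KO library lay below every WT library (mt-Tc, mt-Tn, mt-Tp, both rRNAs, mt-Nd2 and mt-Co3), where 15.5% of all genes tested did so. In injured muscle this held for 0 of 17 members and 8.63% of all genes tested, and the median over the members was -0.52 beside 0.01 over all genes. With injured KO replicate 2 left out it held for 14 of 17 members and 26.2% of all genes tested, and the median was -1.27 beside 0.03.

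For complex I, the NADH dehydrogenase, mt-Nd1 was the subunit gene with the highest level per length. It was at 34952.5, 40303.5 and 25882 RPM in uninjured WT against 15016, 30019 and 7810.0 RPM in uninjured KO (log2 change -1.12, SE 0.49, limma adjusted p = 0.337). In injured muscle it was at 24702.5, 16002 and 28631 RPM in WT against 10733.5, 39860.2 and 8889.7 RPM in KO. KO replicate 2 reached into the WT range in uninjured muscle and lay above it in injured muscle. mt-Nd6, the complex I gene on the strand that also carries the 4 abundant tRNAs, was at 4967, 5807 and 4051 RPM in uninjured WT against 2368, 6035 and 1466 RPM in uninjured KO. Its estimate was the second smallest of the mRNAs (log2 change -0.83, SE 0.47, limma adjusted p = 0.471).

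For complex III, mt-Cytb encodes cytochrome b and had the highest level per length of all members. It was at 43429.5, 52108 and 33992 RPM in uninjured WT against 17710.4, 37654 and 9174 RPM in uninjured KO (log2 change -1.22, SE 0.50, limma adjusted p = 0.315). The injured libraries held it at 32036.5, 20022 and 33623 RPM in WT against 12155, 54558 and 10926 RPM in KO.

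For complex IV, the cytochrome c oxidase, mt-Co1 encodes the catalytic subunit. It was at 37392, 52073 and 27514 RPM in uninjured WT against 11377, 29294 and 6990.2 RPM in uninjured KO (log2 change -1.51, SE 0.52, limma adjusted p = 0.238). In injured muscle it was at 25712, 18072 and 32949 RPM in WT against 10334.5, 59191 and 8603 RPM in KO. The groups overlapped in both states through KO replicate 2 alone.

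For complex V, the ATP synthase, mt-Atp6 encodes a subunit of the proton channel and had far fewer reads. It was at 36.5, 14.4 and 28.6 RPM in uninjured WT against 17.8, 6.30 and 10.9 RPM in uninjured KO (log2 change -1.13, SE 0.46, limma adjusted p = 0.307). After injury it was at 10.8, 13.4 and 27.4 RPM in WT against 12, 21.1 and 16 RPM in KO, with overlap in both states.

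Levels per kilobase of gene fell into a high and a low block. From mt-Nd1 to mt-Co1, and from mt-Nd4 to mt-Cytb, 7 mRNAs averaged 3702.5 (mt-Nd5) to 26034 (mt-Cytb) RPM per kilobase over the 12 libraries. The 6 consecutive genes mt-Co2, mt-Atp8, mt-Atp6, mt-Co3, mt-Nd3 and mt-Nd4l averaged 1.30 (mt-Nd4l) to 228 (mt-Co2) RPM per kilobase. These 6 make up 26.3% of the summed length of the mRNA genes but held 0.0653% to 0.725% of the mRNA reads. The rRNAs averaged 2763 (mt-Rnr1) and 2319 (mt-Rnr2) RPM per kilobase, between the blocks. The mouse nuclear genome holds near-identical copies of mitochondrial sequence, and 6 such genes were in the tables (Gm10925, Gm28437, Gm28438, Gm28439, Gm28661 and Gm29216). Their reads came to 0.0676% to 0.545% of the reads on mitochondrial genes and copies together. The sources used here do not say how reads matching several places were counted, which makes the 6 low genes uncertain; a loss of their reads was not tested.

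Among the 7 high mRNAs only part of the order of levels was the same in nearly all libraries. mt-Nd1 exceeded mt-Co1 and mt-Nd6 exceeded mt-Nd5 in 12 of 12 libraries, and mt-Co1 exceeded mt-Nd4 in 11. mt-Cytb exceeded mt-Nd1 in 8 of 12, mt-Nd4 exceeded mt-Nd2 in 9 and mt-Nd2 exceeded mt-Nd6 in 7, so these neighbours did not keep 1 order. mt-Nd4l, the lowest mRNA, was at 0.354, 0.532 and 0.329 RPM in uninjured WT and 0.0380, 0.157 and 0.164 RPM in uninjured KO, which are 11, 1 and 10 reads and 1, 2 and 7 reads. In injured muscle it was at 0.225, 0.225 and 0.421 RPM in WT and 0.723, 1.33 and 0.121 RPM in KO. It did not pass the filter in either comparison, and with so few reads its order means little. mt-Co2 had 1 library far above the rest: 1089 RPM in uninjured WT replicate 1 against 21.1 to 122 RPM in the other 11. Its estimate in uninjured muscle (log2 change -2.11, SE 0.90, limma adjusted p = 0.332) leans on that library and was -0.97 without uninjured WT replicate 1.

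**Figure D4:**
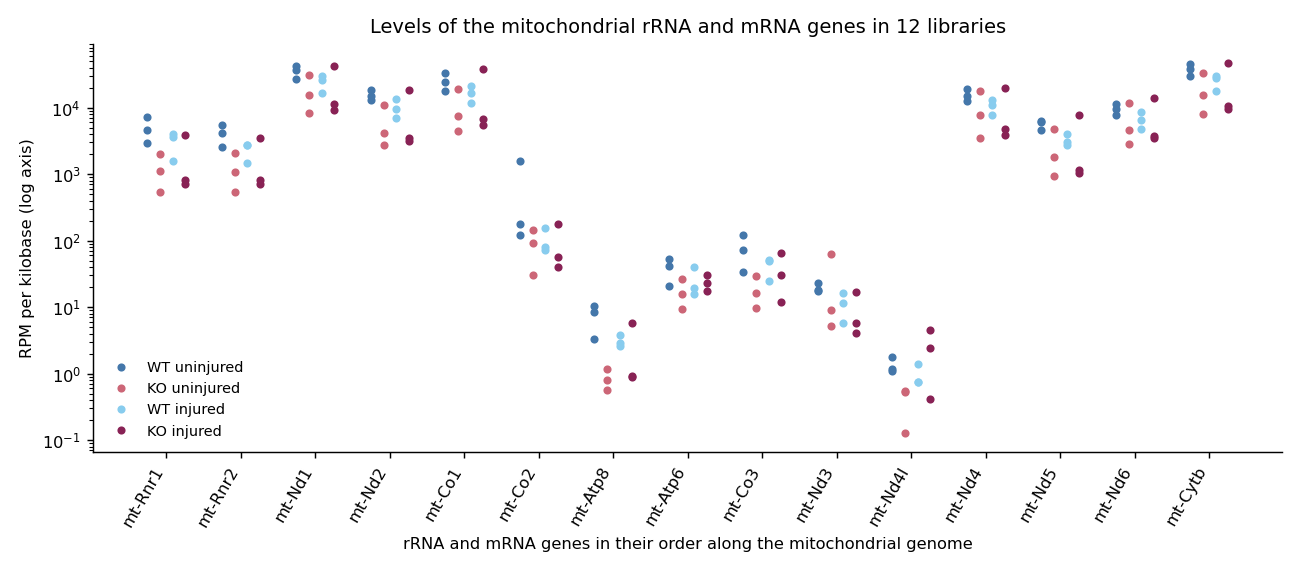
RPM per kilobase (log axis) of the 2 rRNA and 13 mRNA genes in their order along the mitochondrial genome; each point is 1 of 12 libraries, coloured by group. The 6 genes from mt-Co2 to mt-Nd4l lie below the other genes in nearly all libraries, and the highest mt-Co2 point is uninjured WT replicate 1.

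The composition of the mRNA reads, which does not depend on how much mitochondrial RNA a library holds, varied less. mt-Cytb took 24.2% to 27.4% of the mRNA reads, mt-Co1 17.5% to 26.7% and mt-Nd1 18.0% to 23.2%. mt-Nd4 took 12.1% to 16.8%, mt-Nd2 6.63% to 10.2%, mt-Nd5 4.48% to 6.80% and mt-Nd6 2.81% to 4.42%. mt-Nd6 was the 1 mRNA whose share was higher in every KO than in every WT library in both injury states. Its share was 2.93%, 2.81% and 3.09% in uninjured WT and 3.65%, 4.07% and 4.21% in uninjured KO. In injured muscle it was 2.93%, 3.06% and 3.19% in WT and 4.04%, 3.22% and 4.42% in KO, where KO replicate 2 was barely above the WT libraries. The means were 2.94% ± 0.142 against 3.98% ± 0.288 uninjured and 3.06% ± 0.125 against 3.90% ± 0.614 injured (SD, n = 3 each, exact permutation p = 0.1 in both); without injured KO replicate 2 the injured KO mean was 4.23% (exact permutation p = 0.1). In RPM the log2 changes of mt-Nd6 were -0.83 and -0.19, and scaled to mitochondrial mRNA reads 0.43 and 0.34; none of the 4 passed the limma threshold. mt-Nd6 lies opposite mt-Nd5 with an overlap, and whether strand was used in counting is not stated, so reads of the 2 genes cannot be fully told apart.

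In uninjured muscle 4 other mRNAs had shares that did not overlap between genotypes. mt-Nd2 took 9.14%, 9.08% and 10.2% in WT and 6.63%, 7.61% and 8.07% in KO. mt-Co1 took 22.1%, 25.2% and 21.0% in WT and 17.5%, 19.8% and 20.1% in KO. mt-Nd4 took 12.1%, 12.9% and 13.4% in WT and 16.4%, 16.8% and 13.9% in KO. The share was thus lower in KO for mt-Nd2 and mt-Co1 and higher for mt-Nd4; the other was the rare mt-Nd3. Each had an exact permutation p of 0.1. After Benjamini-Hochberg adjustment over the 13 mRNAs the smallest p was 0.26, so none can pass. For mt-Nd6 in injured muscle the adjusted permutation p was 0.65. The shares of a library sum to a fixed total, so they do not vary independently. In RPM, 1929 of 12460 genes tested lay lower and 773 higher in every uninjured KO than in every uninjured WT library. Between the injured groups these numbers were 1089 and 1047 of 12625. In injured muscle the shares of mt-Nd2, mt-Co1 and mt-Nd4 overlapped; without KO replicate 2 those of mt-Nd2 and mt-Co1 were lower in KO with no overlap (exact permutation p = 0.2 for each) and that of mt-Nd4 still overlapped.

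**Figure D5:**
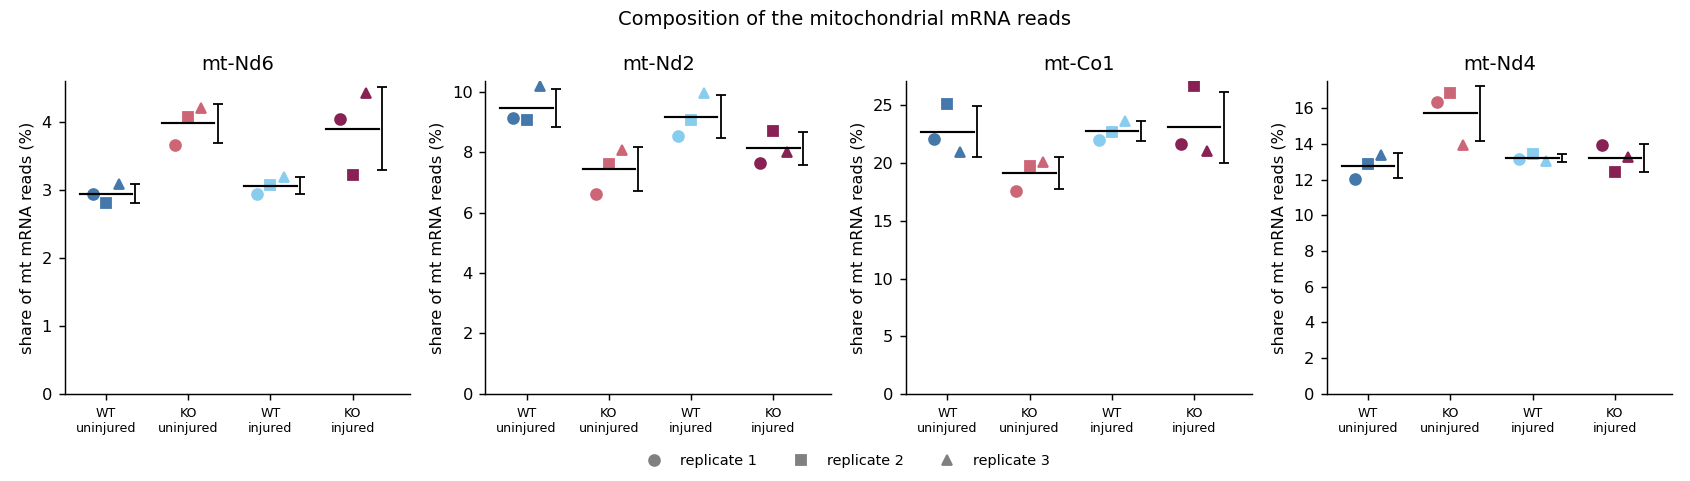
Share of the reads of the 13 mitochondrial mRNAs (%) taken by mt-Nd6, mt-Nd2, mt-Co1 and mt-Nd4 in each library; points are libraries, horizontal lines group means and bars 1 SD (n = 3). The mt-Nd6 share is above the WT libraries in every KO library in both injury states, by the smallest margin in injured KO replicate 2 (3.22%).

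Injury was compared within each genotype in a limma fit of all 12 libraries, with 18 members tested. In WT and in KO 0 members were called, as were 0% of all genes (0 genes each), and 0 members had an unadjusted p under 0.05. edgeR called 0 members in WT and in KO, with 2 and 3 at an unadjusted p under 0.05, and DESeq2 called 0, with 3 and 4. The share of all genes at that p by edgeR or DESeq2 is not given here, so these counts have no background beside them. In WT all 18 estimates on the RPM scale, injured against uninjured, were below 0, with a median of -0.63 beside 0.09 over all genes. In KO 15 of 18 were above 0, with a median of 0.25 beside 0.29 over all genes. mt-Tp was lower after injury in each WT pair of the same number (229.6, 254 and 183 RPM uninjured against 114, 77.2 and 109.6 RPM injured), and its log2 change was -1.15 (SE 0.59) at a limma adjusted p of 1. Counted per 1000000 mitochondrial mRNA reads, mt-Tp was also lower in every injured than in every uninjured WT library (exact permutation p = 0.1). An exact sign-flip test over the same-numbered pairs gave p = 0.25, its smallest possible value. In KO, mt-Tc and mt-Tn per 1000000 mitochondrial mRNA reads were higher in every injured than in every uninjured library. For each the exact permutation p was 0.1 and the exact sign-flip p over same-numbered pairs 0.25. Their log2 changes in RPM were 1.91 (SE 1.04) and 1.34 (SE 0.67), both at a limma adjusted p of 0.728. Without injured KO replicate 2 these log2 changes were 0.22 (SE 0.51) and 0.29 (SE 0.36), at limma adjusted p of 0.869 and 0.746, and 4 of the 17 members tested were above 0, with a median of -0.56 beside 0.27 over all genes. Counted per 1000000 mitochondrial mRNA reads, both tRNAs were still higher in the other 2 injured than in every uninjured KO library (exact permutation p = 0.1).

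The test of whether the KO difference itself changes with injury, the interaction term, called 0 of 18 members and 0% of all genes by limma, with 0 members at an unadjusted p under 0.05 (2 by edgeR and 4 by DESeq2, which also called 0). For edgeR and DESeq2 the share of all genes at that p is not given here. The interaction term was 2.42 (SE 1.47) for mt-Tc, 1.82 (SE 0.94) for mt-Tn and 1.43 (SE 0.83) for mt-Tp, each with a limma adjusted p of 0.9999. Without injured KO replicate 2 the estimates were 0.73, 0.77 and 0.51. The smaller differences in injured muscle are therefore not shown to differ from those in uninjured muscle.

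The nuclear genes that maintain mitochondrial DNA and make, cut, modify and degrade its RNA were examined as 6 lists of 66 genes. They cover DNA replication and the nucleoid, transcription, RNA cleavage, RNA stability and decay, tRNA maturation, and the mitochondrial aminoacyl-tRNA synthetases. Of 65 tested in uninjured muscle 0 were called by limma, with 6 at an unadjusted p under 0.05, where 14.2% of all genes were. edgeR called 0 of 65, with 8 at an unadjusted p under 0.05, and DESeq2 called 1 of 66, with 7. That call was Mterf3, lower in KO, where DESeq2 called 4.32% of all genes. At an unadjusted p under 0.05 edgeR had 2054 of 12460 genes, and DESeq2 had 2552 of the 23129 genes with reads. In injured muscle limma called 0 of 65, with 5 at an unadjusted p under 0.05, where 10.3% of all genes were (edgeR 0 of 65 and 6, DESeq2 0 of 66 and 5). There edgeR had 1279 of 12625 genes at that p, and DESeq2 had 1947 of the 25201 genes with reads. The median log2 change was -0.07 uninjured and -0.04 injured, beside -0.18 and 0.01 over all genes tested. Without injured KO replicate 2, limma called 5 of 64 in injured muscle, 4 higher and 1 lower in KO (Fars2, Iars2, Nsun3, Pus1 and Slirp), beside 19% of all genes; these names were picked after their values were seen.

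The 3 with the smallest unadjusted p in uninjured muscle were Slirp, Mterf3 and Pnpt1. Slirp, which binds and stabilises mitochondrial mRNAs, was at 124, 109 and 134 RPM in WT against 74.5, 67.9 and 44.0 RPM in KO (log2 change -0.995, SE 0.28, limma adjusted p = 0.175). Mterf3, a regulator of mitochondrial transcription and ribosome assembly, was at 19.95, 23.9 and 21.0 RPM in WT against 7.68, 3.15 and 12 RPM in KO (log2 change -1.54, SE 0.43, limma adjusted p = 0.175). Pnpt1, the polynucleotide phosphorylase of the RNA degradosome, was at 24.4, 15.4 and 26.8 RPM in WT against 9.51, 6.77 and 13.4 RPM in KO (log2 change -1.10, SE 0.36, limma adjusted p = 0.219). In each of these genes every KO library lay below every WT library, as in 15.5% of all genes tested, but none passed the limma threshold. The 3 were picked by their p in these same libraries, so this separation adds no evidence of its own. In injured muscle the 3 were Mterf3 again (log2 change -0.66), Mto1, which modifies mitochondrial tRNAs (-0.50), and Ssbp1, which coats single-stranded mitochondrial DNA (-0.54), with limma adjusted p from 0.364 to 0.385. Mterf3 was at 19.2, 19.7 and 29.1 RPM in injured WT against 14.2, 14.5 and 12.5 RPM in injured KO.

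Other features of the libraries differed between the genotypes as well. The 5 muscle fibre markers summed to 82797 to 89533 RPM in uninjured WT and to 99319 to 118158 RPM in uninjured KO, with 2 of 5 higher in every KO library. Their sums overlapped in injured muscle, with 1 of 5 lower in every KO library. The 8 slow fibre markers summed to 1377 to 1849.5 RPM in uninjured WT and to 1881 to 4157 RPM in uninjured KO, with 4 of 8 higher in every KO library and none at 0 throughout, and to 389 to 1564 against 1816 to 6548 RPM in injured muscle, with 5 of 8 higher. The 4 markers of fast IIx and IIb fibres summed to 69679 to 88051 RPM in uninjured WT and to 90833 to 131964 RPM in uninjured KO, with 1 of 4 higher in every KO library. In injured muscle their sums overlapped, with 1 of 4 higher and 1 lower in every KO library. Myh2, the marker of fast IIa fibres, overlapped in both states (181 to 681 against 352 to 2158 RPM uninjured). The sums of the endothelial and red blood cell markers also overlapped in both states. Ucp1, the marker of brown adipocytes, was at 4.31 to 25.5 RPM in uninjured WT against 30.3 to 104 RPM in uninjured KO. In injured muscle Ucp1 overlapped (0.786 to 22.1 RPM in WT against 13.8 to 56.4 RPM in KO). The 5 cardiomyocyte markers summed to 3.95 to 7.21 RPM in uninjured WT and to 179 to 302 RPM in uninjured KO, through Myh6 alone, with Nppa and Nppb at 0 in these libraries, and to 4.38 to 6.43 against 81.0 to 272 RPM in injured muscle. The 5 macrophage markers summed to 80.3 to 152 RPM in uninjured WT and to 46.1 to 77.3 RPM in uninjured KO, with 4 of 5 lower, and to 99.8 to 138 against 85.7 to 87.0 RPM in injured muscle, with 2 of 5 lower. The 5 adipocyte markers summed to 879 to 1593 RPM in uninjured WT and to 1366 to 2287 RPM in uninjured KO, and to 338 to 1012 against 1094 to 2223 RPM in injured muscle, with 0 of 5 apart on their own there. The 2 nuclear-retained RNAs, Malat1 and Neat1, summed to 1632 to 3320.1 RPM in uninjured WT and to 555 to 1814 RPM in uninjured KO, with Malat1 lower in every KO library (81.1 to 106 against 213 to 284 RPM). In injured KO they summed to 593 and 605 RPM in replicates 1 and 3 and to 5391 RPM in replicate 2, the library with the highest mitochondrial share. The part of these differences in the mitochondrial results was not tested.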

How the data were processed

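RNA-seq libraries of 12 muscle samples were analysed in 4 groups of 3, as the labels group them. The authors deposited 1 table for uninjured and 1 for injured muscle, with RPM values that sum to 1000000 per library, and with their own log2 fold change (WT over KO), p-value and q-value per gene. Per the submitters' processing notes, HISAT2 2.1.0, SAMtools, featureCounts and DESeq2 were among the tools and mm10 and GRCm38.p5 the builds, with no role given. Strand use, the handling of reads with several matches and the annotation are not given in the sources used here. The RNA tables carried 0 value columns without a sample.

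From the deposited RPM, shares of reads were computed from recovered whole reads, and each comparison was a linear model on log2(RPM + 1) in limma 3.58.1, run in R 4.3.3, with a mean-variance trend and genes kept at 1 RPM or more in at least 3 fitted libraries. KO and WT were compared within each injury state on 6 libraries, and injury and the interaction on all 12. Within a genotype the descriptions share numbers between uninjured and injured libraries, which may mark the same animals, so the replicate block applies to injury. In KO against WT the block matched libraries by replicate number, a pairing that the labels do not give. Same-numbered uninjured and injured libraries deviated together with correlations of -0.23 to 0.28 in WT and 0.02 to 0.63 in KO. Single values were tested by exact permutation over libraries, two-sided (scipy 1.17.1), and for injury also by exact sign flips of same-numbered differences. The fit was checked on simulated data. The alternatives were a pseudocount of 0.1, other filters, TMM and other scalings, edgeR 4.0.16, DESeq2 1.42.0, a replicate block, all libraries in 1 fit, and leaving out each library. Gene lengths and gene order, for 37 of 37 members, came from a RefSeq table of assembly GRCm38.p6, from which no coordinate is printed. No sequence of a mitochondrial gene was in the reference tables used here. Values in every library are given for members called in any comparison, for the highest and lowest of each class per length, and for the highest mRNA of each complex; of the nuclear lists, those called or the 3 with the smallest unadjusted p are named. mt-Te, mt-Nd2, mt-Nd4, mt-Nd6 and mt-Co2 were added after their values were seen. The members and lists were chosen with earlier results of these data known.

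ChIP-seq peaks were called by the authors with MACS2 2.1.0.20140616 at a q cutoff of 0.05, per the file headers. The deposited list gives the pileup signal, the fold enrichment over background and the −log10 q-value of each peak, and was used only to describe peaks on the mitochondrial genome.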

Additional observations from a re-analysis of the deposited data

Results flagged for a closer look

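mt-Atp8, which encodes a small subunit of complex V, had lower values after injury in each WT pair of the same number and higher values in each KO pair. On the log2(RPM + 1) scale the injured libraries differed from the uninjured library of the same number by -0.14, -0.97 and -0.64 in WT and by 0.09, 0.81 and 0.02 in KO. The difference of these changes, KO minus WT, was 0.89 (SE 0.45, limma interaction adjusted p = 0.9999), so it did not pass the test. The gene had 3 to 53 reads per library and lies in the block of low genes whose levels are uncertain.

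The ChIP-seq of Flag-tagged Myf6, made in primary myotubes and used in no comparison here, had 10 of its 12898 peaks on the mitochondrial genome. Their fold enrichment was 1.35 to 2.63 (median 1.58), where the other peaks had a lowest value of 2.39 and a median of 7.68, and 2 of them lay below 2.63. Their pileup, a signal scaled by MACS2, was 183 to 234, against a median of 20.3 elsewhere. The peaks lay between positions 170.0 and 14411 of the mitochondrial sequence, and the peak file names no build. With 1 ChIP library and 1 control, these values have no replicate check.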

How the results depend on the processing

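The number of members called in uninjured KO against WT was 3, and all calls under every alternative were lower in KO. It was 0 with no filter (1 gene in all called), 1 with scaling to mitochondrial mRNA reads, 2 with edgeR (55 genes in all, against 35 with limma) and 5 with DESeq2 (611 genes in all), and it ranged from 1 to 4 when 1 library was left out. Scaling to mitochondrial mRNA reads also turned the sign for mt-Te (0.20), mt-Nd6 (0.43), mt-Nd1 (0.14), mt-Cytb (0.042), mt-Nd3 (0.72), mt-Nd4 (0.29) and mt-Atp6 (0.079); this scaling fixes the mRNA total by construction. In injured muscle the number called ranged from 0 to 11 when 1 library was left out, and the difference in the mitochondrial share from -7.25 to 2.18 percentage points, above 0 without injured WT replicate 3 (0.376), KO replicate 1 (1.86) or KO replicate 3. The number of mRNAs whose share did not overlap was 5 in uninjured and 1 in injured muscle, and ranged from 5 to 9 and from 1 to 7 with 1 library left out. A share of the mitochondrial mRNA reads exists for these genes only, so this count has no rate over all genes beside it. For injury and the interaction the count was 0 in all 21 alternatives each. Scaling moved the median log2 change of all genes in uninjured muscle from -0.18 to -0.02 (TMM) and -0.32 (reads outside mitochondrial genes).

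With a replicate block the uninjured count was 11 (6.04% of all genes called, against 0.281%), and it stayed 0 in the other comparisons. Same-numbered WT and KO libraries deviated together only weakly in uninjured muscle (correlation 0.04 to 0.37) and in opposite ways in injured muscle (-0.60 to -0.30), and WT and KO libraries have different numbers in their descriptions, so the numbers were not taken to pair them. With the replicate block the differences of group shares are the same by construction. At 1880087 reads, uninjured WT replicate 2 has a floor of 3 reads at 1.60 RPM, which limits what it shows of rare tRNAs.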
